A study of Rattus norvegicus with 33 samples.

Results

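White fat surrounds the ducts of the mammary gland, and 9 genes of white adipocytes were followed here through 6 stages of gland development in the rat. They are Adipoq (adiponectin), Lep (leptin), Cfd (adipsin, or complement factor D), Retn (resistin), Sncg (gamma-synuclein), Plin1 (perilipin 1), Pparg (the nuclear receptor PPAR gamma), Slc2a4 (the glucose transporter GLUT4) and Lipe (hormone-sensitive lipase). They were taken by symbol from the platform annotation, as 9 of the 18166 genes that it names with a single symbol. The set was chosen with earlier results of these data known, so counts of its members describe these arrays. Each of the 9 had 1 probe set, and all passed the filter on low values, a log2 value above 7.65 in at least 3 arrays. Lep exceeded that value in 25 of the 33 arrays, Slc2a4 in 28, Retn in 32 and each of the other members in 33.

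The arrays carry total RNA of the fifth caudal mammary glands, left and right, of female Sprague-Dawley rats, an outbred strain. All the rats, at every stage, were vehicle controls of a chemical study: they received olive oil by gavage, 0.5 mL until postnatal day 63 and 1 mL from then until day 180. There were 10 arrays of pre-pubertal glands (postnatal day 21, before weaning at day 28), 5 of peri-pubertal glands (day 42), 5 of pubertal glands (day 63), 3 of glands at lactation day 28 (postnatal day 146), and 5 each of nulliparous and parous glands (day 181). The series text gives these numbers as animals, while the sample notes give 5 animals for each stage. Each array is treated as 1 animal; with fewer than 10 animals behind the pre-pubertal arrays, their errors and p-values would be too small. Rats of 1 stage were killed on 1 day, at any point of the estrous cycle, so collection day and stage cannot be told apart.

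White adipocytes store triglyceride in 1 large droplet and release fatty acids from it on hormonal demand. They also secrete adipokines, hormones and immune proteins that report on fat stores and act on liver, muscle, vessels and brain. In the mammary fat pad they lie against the growing ducts, and in lactation, when the epithelium fills the pad and makes milk fat, they are known to lose lipid. PPAR gamma is the nuclear receptor that drives the adipocyte programme, together with C/EBP alpha.

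Promoter sequences of the 3 adipokines Adipoq, Lep and Retn and of the droplet gene Plin1 are shown as examples of the hormone and droplet members whose courses over the stages are described below. Of the 9 members, 7 had an entry in the RefSeq promoter table (assembly GRCr8), which holds 250 bases before and 50 after each start site. Sequences run 5′ to 3′ on the gene's strand. Capitals mark, on either strand, matches to TTNCNNAA (a C/EBP core, of which the palindrome TTGCGCAA is 1 form), AGGTCA (a nuclear receptor half-site), CCAAT and GGGCGG (a GC box); a match on the opposite strand appears as its reverse complement. The Adipoq window lies at chr11:91240120-91240419 on the minus strand, Lep at chr4:58626288-58626587 on the plus strand, Retn at chr12:6508524-6508823 on the plus strand and Plin1 at chr1:143086099-143086398 on the minus strand.
Adipoq: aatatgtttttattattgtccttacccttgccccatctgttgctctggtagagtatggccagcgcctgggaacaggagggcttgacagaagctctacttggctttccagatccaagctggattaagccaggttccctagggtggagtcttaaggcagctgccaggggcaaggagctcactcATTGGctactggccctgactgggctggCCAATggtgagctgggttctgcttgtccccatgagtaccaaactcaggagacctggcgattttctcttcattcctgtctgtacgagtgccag
Lep: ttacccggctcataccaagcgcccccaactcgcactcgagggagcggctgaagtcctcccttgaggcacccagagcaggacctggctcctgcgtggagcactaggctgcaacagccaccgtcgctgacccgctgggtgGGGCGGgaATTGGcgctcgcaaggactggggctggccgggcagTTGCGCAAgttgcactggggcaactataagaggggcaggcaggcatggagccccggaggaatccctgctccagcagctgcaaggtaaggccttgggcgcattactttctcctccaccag
Retn: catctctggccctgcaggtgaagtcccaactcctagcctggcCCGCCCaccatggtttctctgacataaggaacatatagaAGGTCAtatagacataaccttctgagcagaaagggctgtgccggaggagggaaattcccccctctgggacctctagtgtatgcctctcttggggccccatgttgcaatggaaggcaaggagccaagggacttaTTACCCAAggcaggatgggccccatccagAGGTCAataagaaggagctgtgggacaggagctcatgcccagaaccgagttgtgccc
Plin1: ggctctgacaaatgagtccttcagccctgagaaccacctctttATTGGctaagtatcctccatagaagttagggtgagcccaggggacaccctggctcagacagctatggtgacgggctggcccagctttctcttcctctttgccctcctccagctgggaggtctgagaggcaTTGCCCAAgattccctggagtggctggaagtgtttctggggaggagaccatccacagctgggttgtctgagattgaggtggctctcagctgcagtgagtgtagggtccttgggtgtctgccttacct

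The palindrome TTGCGCAA was found in Lep, at bases -69 to -62 from the start site, and in 0.17% of the 33469 promoters in the table. The looser core TTNCNNAA was found in 4 of the 7 members (Lep, Retn, Plin1 and a second start site of Pparg) and in 41.3% of all promoters. Retn held AGGTCA at -169 to -164 and again at -7 to -2, against 16.2% of promoters with any match. CCAAT was found in 4 members (37.5% of promoters), with both Adipoq matches within 69 bases of the start, and GGGCGG in 5 (33.1%). A direct repeat of AGGTCA with 1 base between the copies, the form bound by PPAR gamma with RXR, was in none of the 8 member windows and in 0.0538% of promoters. These matches describe letters in short windows and were not set against binding data.

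The labels name 3 batches, which bear on every value below. Batch 1 held arrays of each stage but lactation, batch 2 held all 3 lactation arrays with 4 pre-pubertal, 2 peri-pubertal and 2 pubertal arrays, and batch 3 held 2 nulliparous and 2 parous arrays. Batch 3 alone was extracted with the Zymo kit, which the protocol assigns to some adult glands described as fattier. Differences are therefore given as log2 ± SE from 1 limma fit with stage and batch terms, where "rose" or "fell" means an adjusted p under 0.05 over 10986 genes. Most comparisons share arrays and are not independent. Markers of other cells also varied. The mean over 14 luminal epithelial genes ranged from 6.68 to 9.41 in pre-pubertal glands and from 10.25 to 10.78 in lactation. The skeletal muscle list reached 10.13 in pre-pubertal array 10, 9.74 and 9.40 in peri-pubertal arrays 1 and 4, 9.79 in lactation array 3 and 10.70 in nulliparous array 5, while pubertal arrays lay between 6.79 and 6.88. Of 9 brown and beige fat genes on the array, 6 did not pass the filter. Ucp1, the uncoupling protein of brown fat, lay between 4.58 and 5.38, Elovl3 between 4.86 and 5.66, Zic1 between 4.58 and 5.49, Dio2 between 5.19 and 7.26, Ppargc1a between 5.34 and 7.29 and Cox8b between 5.55 and 8.85. The other 3 passed, with Cidea between 9.10 and 12.90, Tmem26 between 6.94 and 9.55 and Cpt1b between 6.93 and 8.78.

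All 9 genes differed among the stages in limma's F test with batch in the model, as did 65.9% of genes tested, with adjusted p from 9.48e-12 for Plin1 to 0.000188 for Lep. With batch 1 as the common level, 7 members had their highest stage level in pre-pubertal glands and 7 their lowest in lactation. The exceptions were Lep and Sncg, highest in nulliparous glands, Lep also lowest in peri-pubertal glands, and Retn, lowest in parous glands. The counts of 7 were not set against all genes, of which 56% were called between pre-pubertal glands and lactation. In bulk tissue, fewer adipocytes and less RNA of a gene per adipocyte cannot be told apart.

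**Figure D1:**
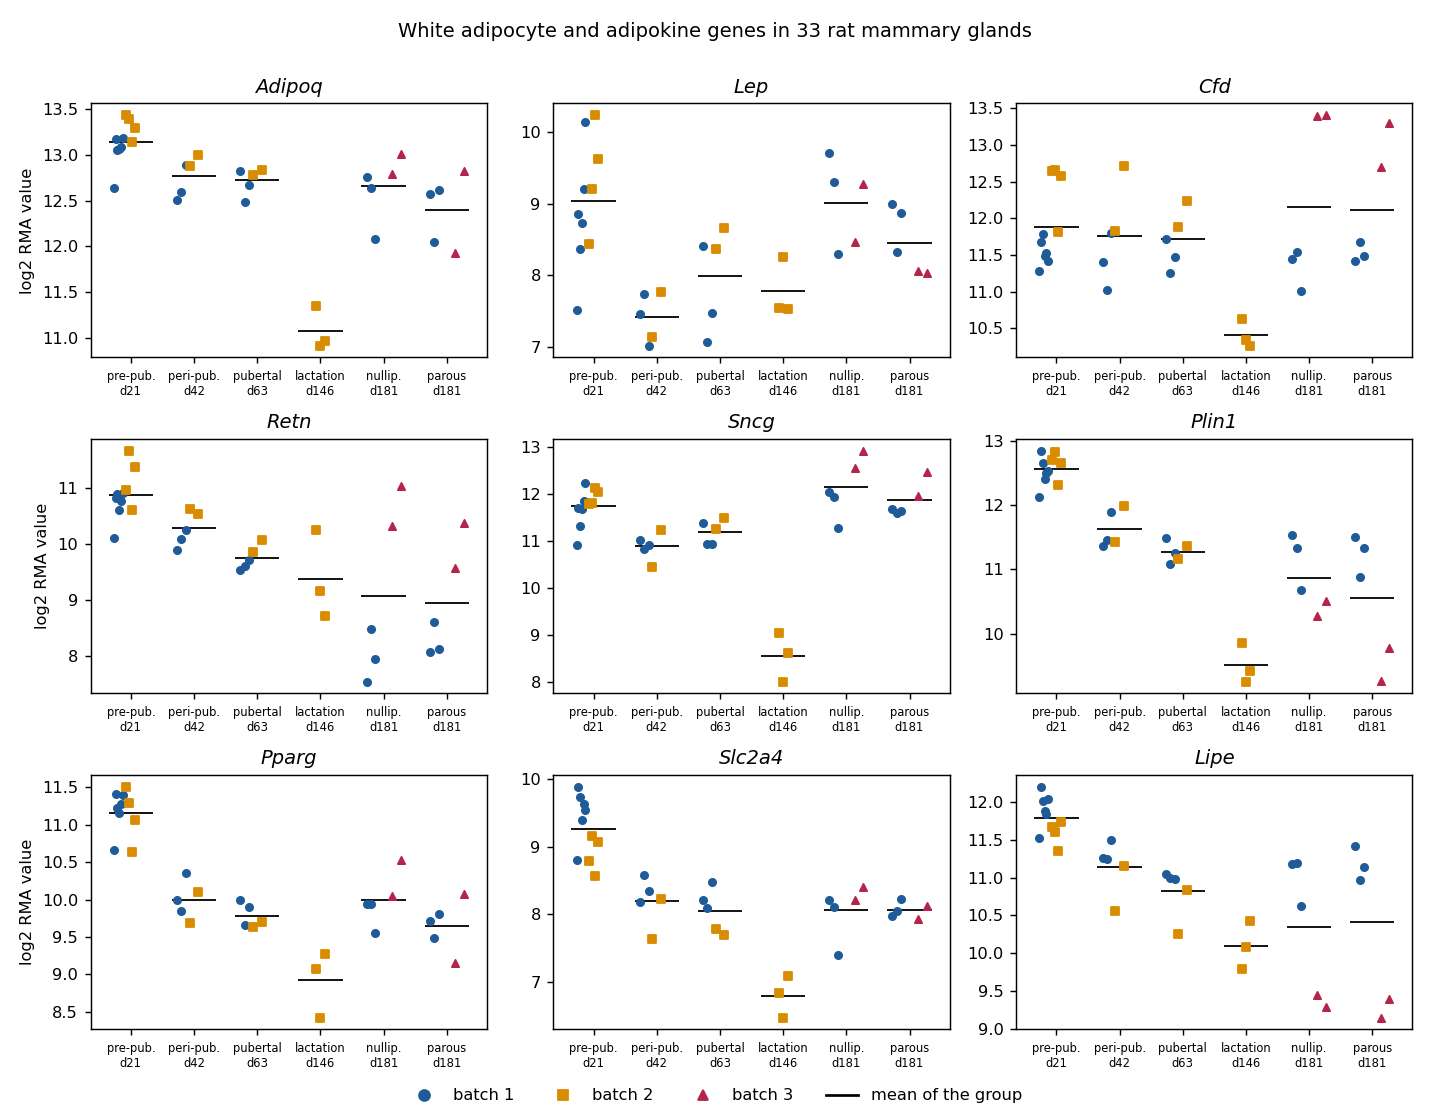
Log2 RMA value of each of the 9 genes in each of the 33 arrays, by stage, with colour and shape for batch and a line at the group mean. The 3 lactation arrays lie below all others for Adipoq, Cfd, Sncg and Slc2a4, and the batch 3 arrays stand high for Cfd and Retn and low for Lipe within the adult groups.

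Neighbours in the order of levels were then compared in the same model. Over all genes such a comparison called 32.3% for pre-pubertal and peri-pubertal glands, and 43.1%, 40.7% and 32.9% for lactation and peri-pubertal, pubertal or parous glands. For Adipoq the adjusted levels ran from 13.04 (pre-pubertal) through 12.67, 12.62, 12.58 and 12.32 (peri-pubertal, pubertal, nulliparous, parous) to 10.83 in lactation, with called steps only at either end of the order. Plin1 and Slc2a4 had the same pattern of steps, from 12.52 to 9.42 and from 9.47 to 7.34. Lipe, from 11.95 to 10.50, also had called steps only from pre-pubertal to the next level and from the fifth level to lactation. For Pparg only the first step, from 11.21 to 10.05, was called, and its step from parous (9.56) to lactation (9.04) was not. For Cfd and Sncg only the step into lactation was called: the 5 other Cfd levels lay between 11.39 and 11.57, against 9.60 in lactation, and the 5 other Sncg levels between 10.81 and 11.84, against 8.35. Lep, from 9.19 in nulliparous to 7.22 in peri-pubertal glands, had no called step; its largest, from parous (8.64) to pubertal (7.79), was 0.85 ± 0.41 (adjusted p = 0.229). Retn had a called step between pre-pubertal (10.69) and peri-pubertal glands (10.10) and none among the lower levels of 9.57, 8.93, 8.19 and 8.08.

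Between day 21 and day 42, 8 of the 9 genes fell and 0 rose, where 15.2% of all genes tested fell. The median log2 difference was -0.85 over the members and -0.00 over all genes. The regulator Pparg fell by 1.16 ± 0.16 (2.24-fold, adjusted p = 3.72e-06). The transporter gene Slc2a4 fell by 1.06 ± 0.15 (2.09-fold, adjusted p = 5.91e-06). Plin1, which coats the droplet and gates access of lipases to it, fell by 0.93 ± 0.16 (1.90-fold, adjusted p = 6.34e-05). Leptin had the largest difference and the widest error (fell by 1.61 ± 0.32, 3.05-fold, adjusted p = 0.000323). Adipsin, a serine protease of the alternative complement pathway, did not pass (-0.13 ± 0.16, adjusted p = 0.558).

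For Pparg the pre-pubertal arrays lay between 10.63 and 11.51 with a median of 11.25, and the peri-pubertal arrays at 9.99, 9.85, 10.36, 9.69 and 10.10. For Plin1 they lay between 12.13 and 12.84 with a median of 12.59, and at 11.37, 11.46, 11.90, 11.42 and 11.98. These were the only 2 members whose groups did not overlap at all, against 1.78% of genes with day 42 wholly below. For Slc2a4 the groups met at the edge, from 8.57 to 9.89 (median 9.28) at day 21 and at 8.19, 8.59, 8.34, 7.63 and 8.23 at day 42, where the lowest pre-pubertal array was of batch 2 and the highest peri-pubertal array of batch 1. Within each batch Slc2a4 did not overlap, with differences of -1.13 in batch 1 and -0.97 in batch 2. In batch 1, 4 members had day 42 wholly below, against 7.73% of all genes. In batch 2, 7 members did, against 14.3%.

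Leptin spread widely before puberty, from 7.51 to 10.24 with a median of 9.03, while the 5 peri-pubertal arrays lay at 7.46, 7.74, 7.01, 7.14 and 7.76. Pre-pubertal array 1, at 7.51, alone reached into the peri-pubertal range. The Lep values of 7.51, 7.46, 7.01 and 7.14 are under the level of the low-value filter, where ratios are less exact. Sncg, a small synuclein abundant in white fat and peripheral nerve, fell by 0.85 ± 0.18 (adjusted p = 0.0005), with pre-pubertal arrays between 10.93 and 12.24 and peri-pubertal arrays between 10.44 and 11.24. Lipe, which cleaves diglyceride in lipolysis, fell by 0.65 ± 0.12 (adjusted p = 0.000215), with -0.59 within batch 1 and -0.74 within batch 2. Lipe was not called with no batch term or in batch 2 alone (adjusted p = 0.224 and 0.0808, and 3.57e-05 to 0.224 over its 30 alternatives).

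Adiponectin, which raises insulin sensitivity, and resistin, which opposes insulin action in rodents, had the smallest called differences. Adipoq fell by 0.37 ± 0.13 (adjusted p = 0.0279), from 13.14 ± 0.22 (SD, n = 10) to 12.77 ± 0.21 (SD, n = 5), a call lost without peri-pubertal array 1, 2 or 4 (adjusted p = 0.0829, 0.0654 and 0.0623, and 0.00573 to 0.302 over its 30 alternatives). Retn fell by 0.59 ± 0.21 (adjusted p = 0.0335), from 10.87 ± 0.43 to 10.28 ± 0.31. The Retn call was lost without pre-pubertal array 3, 5 or 10 (adjusted p = 0.0518, 0.0578 and 0.0521) or peri-pubertal array 1, 2, 4 or 5 (adjusted p = 0.0875, 0.0596, 0.0534 and 0.0619, and 0.00669 to 0.49 over its 30 alternatives). Both differences were of the same size in batch 1 and batch 2 (Adipoq -0.37 and -0.37, Retn -0.61 and -0.57).

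Epithelial genes moved the other way over the same interval. Of 14 luminal genes 13 rose, where 17.1% of all genes did, and their mean lay between 9.35 and 9.84 at day 42. At day 21 it lay between 6.68 and 9.41, hardly overlapping day 42, so as a covariate this mean cannot separate stage from epithelial content. With it in the fit, Pparg (-1.30, adjusted p = 0.00215), Slc2a4 (-1.03, adjusted p = 0.0126), Lep (-2.05, adjusted p = 0.0142), Sncg (-1.09, adjusted p = 0.0194) and Lipe (-0.70, adjusted p = 0.0391) were called. Plin1 was not called (-0.85, adjusted p = 0.0511, the highest of its 30 alternatives). Neither Adipoq (-0.44, adjusted p = 0.302) nor Retn (-0.65, adjusted p = 0.396) was called. Over all genes tested, the fit with this covariate called 311, against 3552 in the main fit. The cause of the lost member calls was not tested. Of 8 milk protein genes 5 rose and 2 fell, and of 3 basal cell and 8 fibroblast genes 2 and 3 rose. Lymphocyte and vessel genes fell beside the members: 8 of 9 T cell genes (list median -2.17), 6 of 6 B cell genes (-1.73) and 5 of 6 endothelial genes (-0.38), where 15.2% of all genes fell. The T cell mean lay between 6.82 and 10.33 at day 21 and between 6.77 and 8.05 at day 42, the B cell mean between 6.60 and 9.92 and between 6.59 and 8.62, and the endothelial mean between 9.63 and 10.18 and between 9.34 and 9.60. The part of these lists in the member differences was not tested.

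**Figure D2:**
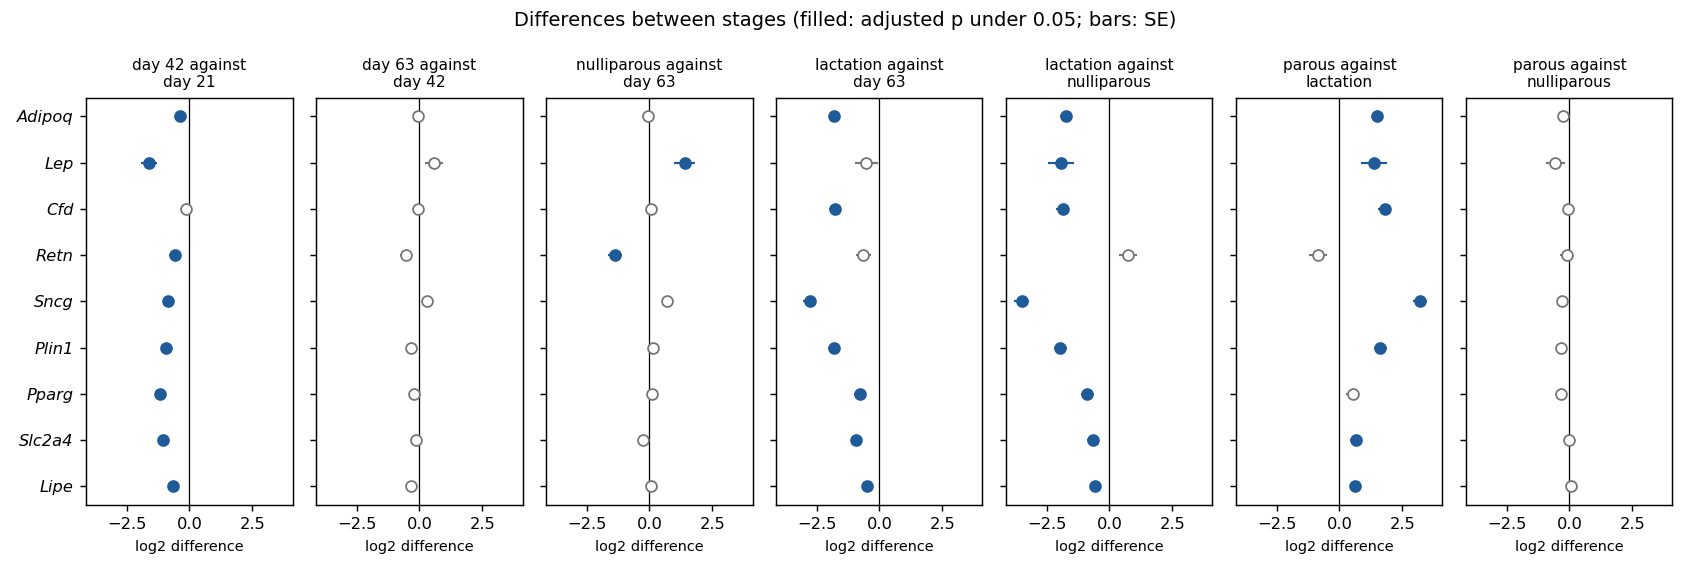
Log2 difference of each gene in 7 comparisons of stages, with bars for the SE and filled points for an adjusted p under 0.05. At day 42 all members but Cfd are filled and below 0, in the lactation comparisons Sncg lies farthest below 0, and no point is filled for day 63 against day 42 or for parous against nulliparous glands.

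From day 42 to day 63 none of the 9 genes was called, where 1.22% of all genes were. At an unadjusted p under 0.05 there were 2, Retn (-0.52 ± 0.25, p = 0.0424, adjusted p = 0.317) and Lipe (-0.32 ± 0.14, p = 0.0321, adjusted p = 0.281), both with limma. The pubertal arrays of Retn lay at 9.53, 9.60, 9.72, 9.85 and 10.07 and the peri-pubertal ones at 9.88, 10.10, 10.24, 10.62 and 10.53. They overlapped in the pool but not within batch 1 (-0.46) or batch 2 (-0.62). Pubertal arrays lay wholly below for 9.76% of all genes within batch 1 and for 21.1% within batch 2. Lep differed by 0.57 ± 0.37 (adjusted p = 0.498), with batch 2 pubertal arrays at 8.36 and 8.67 above both peri-pubertal arrays of that batch. Such a separation was found for 23.6% of all genes. When arrays were given limma's quality weights, Lipe (-0.40, adjusted p = 0.0139), Plin1 (-0.53, adjusted p = 0.00798), Pparg (-0.38, adjusted p = 0.0324) and Retn (-0.56, adjusted p = 0.0334) passed. With only these groups in the fit, Retn passed as well (-0.52, adjusted p = 0.026). The highest adjusted p over 25 alternatives was 1.00 for each of these 4 genes.

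In lactation 7 of the 9 genes had their lowest stage level, all but Lep and Retn. Against pubertal glands 7 of the 9 fell and 0 rose, where 16.9% of all genes fell, and 6 had all 3 lactation arrays below all 5 pubertal arrays, as had 17.4% of genes. Sncg fell the most, by 2.77 ± 0.25 (6.84-fold, adjusted p = 1.67e-09). Plin1 fell by 1.81 ± 0.23 (3.52-fold, adjusted p = 3.8e-07). Adipoq fell by 1.79 ± 0.18 (3.45-fold, adjusted p = 1.53e-08), and Cfd fell by 1.79 ± 0.22 (3.45-fold, adjusted p = 3.97e-07). The member median was -0.93, against 0.06 over all genes.

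For Sncg the lactation arrays were at 9.04, 8.02 and 8.62, and the pubertal arrays at 11.39, 10.94, 10.94, 11.27 and 11.49. For Adipoq they were at 11.35, 10.92 and 10.97, against 12.82, 12.49, 12.67, 12.78 and 12.84. Even the highest lactation array of either gene lay more than 1 log2 unit below the lowest pubertal array. For Cfd the lactation arrays were at 10.63, 10.34 and 10.26, against 11.72, 11.26, 11.48, 11.88 and 12.23. For Plin1 they were at 9.86, 9.25 and 9.41, against 11.49, 11.08, 11.25, 11.16 and 11.37. All 3 lactation arrays belonged to batch 2, and against the 2 pubertal arrays of that batch alone the differences were -2.82 for Sncg, -1.76 for Plin1, -1.73 for Adipoq and -1.65 for Cfd. With no batch term Cfd was not called (-1.30, adjusted p = 0.0619, and 3.28e-07 to 0.0619 over its 22 alternatives).

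The regulator and the metabolic genes moved less. Slc2a4 fell by 0.93 ± 0.22 (1.90-fold, adjusted p = 0.00112), to 6.84, 6.48 and 7.08 in lactation from 8.21, 8.10, 8.47, 7.78 and 7.70. All 3 of these Slc2a4 values are under the level of the low-value filter, where ratios are less exact. Pparg fell by 0.78 ± 0.23 (1.72-fold, adjusted p = 0.00743), to 9.07, 8.42 and 9.28, and without lactation array 2, the lowest, it did not pass (-0.53, adjusted p = 0.0935, and 0.0034 to 0.0935 over its 22 alternatives). Lipe fell by 0.49 ± 0.18 (1.40-fold, adjusted p = 0.0278), to 9.79, 10.07 and 10.42, which overlapped the pubertal array at 10.25. The Lipe call was lost without pubertal array 5 (adjusted p = 0.104) or lactation array 1 (-0.33, adjusted p = 0.171) or 2 (adjusted p = 0.0719), with only these groups in the fit (adjusted p = 0.132) and under other settings (0.00899 to 0.264 over its 22 alternatives). In batch 2 alone, neither Pparg (-0.74, adjusted p = 0.0758) nor Lipe (-0.45, adjusted p = 0.194) passed.

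Leptin and resistin, both hormones, were not called against pubertal glands. Lep was at 7.55, 8.25 and 7.52 in lactation, within the pubertal spread of 7.06 to 8.67 (-0.53 ± 0.45, adjusted p = 0.372). The lactation values of 7.55 and 7.52 and the pubertal low of 7.06 are under the level of the low-value filter. Retn was at 10.25, 9.17 and 8.71 (-0.64 ± 0.30, adjusted p = 0.0909). Lactation array 1 stood above the whole pubertal range of Retn, which ran from 9.53 to 10.07, and without it the difference was -1.08 (adjusted p = 0.00525, and 0.00525 to 0.712 over its 22 alternatives).

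Against nulliparous glands, the closer age match, 8 members fell, where 13.5% of all genes did, and 7 had no overlap, where 15.4% had none with lactation below. Lactation shares no batch with nulliparous glands, so the differences rest on the batch terms, while the overlap was taken before them. For Slc2a4, whose batch 2 term was -0.54, the means before those terms were 6.80 and 8.07. Sncg fell by 3.49 ± 0.29 (11.2-fold, adjusted p = 6.87e-10), and Plin1 (-1.95 ± 0.26), Cfd (-1.85 ± 0.26) and Adipoq (-1.75 ± 0.21) fell with adjusted p from 4.55e-07 to 3.54e-06. Here Lep fell as well, by 1.93 ± 0.52 (3.82-fold, adjusted p = 0.00492), and nulliparous arrays lay at 9.71, 9.31, 8.29, 8.46 and 9.28. Before the batch terms its means were closer, 7.77 in lactation and 9.01 in nulliparous glands, so part of the Lep difference comes from those terms. Retn was 0.74 ± 0.35 higher in lactation and not called (adjusted p = 0.103), and it passed without lactation array 3 (1.07, adjusted p = 0.0251), without batch 3 (0.93, adjusted p = 0.0323) or with array weights (0.89, adjusted p = 0.0406), with 0.0251 to 0.697 over its 20 alternatives.

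Pparg fell by 0.87 ± 0.26 (adjusted p = 0.0107) against nulliparous glands, and Slc2a4 (-0.66 ± 0.25, adjusted p = 0.0407) and Lipe (-0.56 ± 0.20, adjusted p = 0.0326) fell too. Pparg did not pass without lactation array 2 (-0.62, adjusted p = 0.0838, and 0.0007 to 0.0838 over its 20 alternatives). Slc2a4 did not pass without lactation array 1 or 2 (adjusted p = 0.0597 and 0.173) or nulliparous array 1, 2, 4 or 5 (adjusted p = 0.0937, 0.0799, 0.051 and 0.0566). Lipe did not pass without lactation array 1 or 2 (adjusted p = 0.148 and 0.0696) or nulliparous array 1 or 2 (adjusted p = 0.0703 and 0.0758). With the luminal mean as a covariate Slc2a4 (-0.63, adjusted p = 0.0954) and Lipe (-0.59, adjusted p = 0.0504) were not called, and over all 20 alternatives their adjusted p ran from 0.000564 to 0.173 and from 0.00661 to 0.682.

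At day 181 the glands of parous rats, which had nursed and weaned, were compared with lactation. Of the 9 genes 7 rose and 0 fell, where 12.1% of all genes rose, and 4 (Adipoq, Cfd, Sncg and Slc2a4) had all parous arrays above all lactation arrays, as had 13.3% of genes. Sncg rose by 3.21 ± 0.29 (9.27-fold, adjusted p = 4.17e-09), Cfd by 1.81 ± 0.26 (3.50-fold), Plin1 by 1.63 ± 0.26 (3.10-fold) and Adipoq by 1.49 ± 0.21 (2.81-fold), with adjusted p from 5.69e-06 to 2.74e-05 for the last 3. Parous Sncg arrays were at 11.68, 11.60, 11.65, 11.96 and 12.48, and parous Adipoq arrays at 12.57, 12.05, 12.62, 11.93 and 12.82. These groups share no batch either, and the overlap of arrays was again taken before the batch terms. Other cell lists differed between the same arrays: all 8 fibroblast genes rose (list median 0.91), with list means of 11.08 ± 0.60 (SD, n = 5) in parous and 10.48 ± 0.22 (SD, n = 3) in lactating glands before the batch terms. Of 14 luminal genes 8 fell and 1 rose (list median -1.21), where 20.7% of all genes fell, with means from 9.41 to 9.75 and from 10.25 to 10.78. Of 6 B cell genes 3 rose, with means from 6.50 to 10.02 and from 6.55 to 6.83, as did 1 of 9 T cell genes. The part of these lists in the rise of the members was not tested.

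Calls for the other members were less firm. Lep rose by 1.38 ± 0.52 (adjusted p = 0.0427), a call lost without lactation array 1 or 3 (adjusted p = 0.0952 and 0.107) or parous array 1 or 3 (adjusted p = 0.0935 and 0.0842, and 0.00361 to 0.263 over its 20 alternatives). With no batch term the Lep difference was 0.68 and not called (adjusted p = 0.263). Slc2a4 rose by 0.65 ± 0.25 (adjusted p = 0.044), a call lost without lactation array 1 or 2 (adjusted p = 0.0637 and 0.177) or parous array 1, 2 or 3 (adjusted p = 0.0661, 0.0709 and 0.108, and 0.000723 to 0.177 over its 20 alternatives). Lipe rose by 0.63 ± 0.20 (adjusted p = 0.0181), a call lost without lactation array 1 (adjusted p = 0.0904) or parous array 1 (adjusted p = 0.0622) or with no batch term (0.596, against 0.00665 to 0.596 over its 20 alternatives). Pparg had a difference of 0.52 ± 0.26 (adjusted p = 0.127) and passed, of its 20 alternatives (adjusted p from 0.0179 to 0.48), only without parous array 4 (0.62, adjusted p = 0.0424), without batch 3 (0.63, adjusted p = 0.0498) or with no batch term (0.73, adjusted p = 0.0179). Retn had the opposite sign, -0.85 ± 0.35 (adjusted p = 0.0614), and was called without lactation array 3 (-1.18, adjusted p = 0.0149) or parous array 2 (-1.05, adjusted p = 0.0259), with array weights (-0.98, adjusted p = 0.0287) or with centred arrays (-0.93, adjusted p = 0.0398), with 0.0149 to 0.586 over its 20 alternatives.

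Between puberty and adult nulliparous life, Lep rose and Retn fell, and the other 7 members were not called, where 1.88% of all genes rose and 2.39% fell. Leptin, which reports fat stores to the brain, rose by 1.40 ± 0.41 (2.65-fold, adjusted p = 0.0469), from 8.41, 7.06, 7.47, 8.36 and 8.67 at day 63. Nulliparous arrays, given above, exceeded these in 3 of 5 cases and lay within them in the others. The Lep call sat at the threshold: it was lost without pubertal array 2, 3 or 4 (adjusted p = 0.16, 0.137 and 0.0642), without nulliparous array 1, 2, 4 or 5 (adjusted p = 0.129, 0.122, 0.0513 and 0.0726), within batch 1 (1.46, adjusted p = 0.148), without batch 3 (1.31, adjusted p = 0.124) and under other settings (6.13e-05 to 0.16 over its 24 alternatives).

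Retn fell by 1.38 ± 0.28 (2.60-fold, adjusted p = 0.00419). The 3 nulliparous arrays of batch 1 lay at 7.55, 8.49 and 7.94, below the batch 1 pubertal arrays at 9.53, 9.60 and 9.72, a difference of -1.62 (adjusted p = 0.00274 within that batch). The 2 nulliparous arrays of batch 3 lay at 10.32 and 11.03, above every pubertal array. With no batch term the Retn difference was -0.69 and not called (adjusted p = 0.331, and 1.38e-05 to 0.331 over its 24 alternatives). Sncg had a difference of 0.72 ± 0.23 (adjusted p = 0.0724) and passed without nulliparous array 3 (0.92, adjusted p = 0.0331), with no batch term (0.94, adjusted p = 0.0355) or with array weights (0.88, adjusted p = 0.00039), with 0.00039 to 0.192 over its 24 alternatives. The remaining members differed by -0.27 to 0.13.

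Parous and nulliparous glands of the same age did not differ in any of the 9 genes by the test, where 0.0182% of all genes did. With limma 0 members had an unadjusted p under 0.05, and the differences lay between -0.55 (Lep, SE 0.37) and 0.07 (Lipe, SE 0.14). Within batch 1 they lay between -0.37 (Lep) and 0.28 (Retn). Within batch 3, with 2 arrays a group, all 9 members were lower in parous glands, from -0.87 (Plin1) to -0.10 (Lipe), with a median of -0.53 against 0.00 over all genes. Of these, 5 did not overlap (Plin1, Lep at -0.83, Sncg at -0.52, Cfd at -0.40 and Slc2a4 at -0.29), where 16.6% of all genes had parous arrays wholly below. The difference between batches was not called for any gene; for Plin1 it was -0.92 ± 0.35 (unadjusted p = 0.0146, adjusted p = 1.00).

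Some adipocyte genes differed between batch 3 and batch 1 by as much as between stages. In batch 3 Retn was higher by 2.19 ± 0.25 (4.55-fold, adjusted p = 5.03e-09), Cfd by 1.77 ± 0.19 (3.42-fold, adjusted p = 7.14e-10) and Sncg by 0.78 ± 0.21 (adjusted p = 0.00124), 3 of 9 members, where 33% of all genes were higher. Lipe (-1.77 ± 0.15, 3.42-fold, adjusted p = 4.17e-12) and Plin1 (-1.26 ± 0.19, 2.39-fold, adjusted p = 5.71e-07) were lower, where 44.4% of all genes were. The median over all genes was -0.17. Adipoq (0.19), Pparg (0.21), Slc2a4 (0.17) and Lep (-0.46) were not called, and Adipoq (0.41, adjusted p = 0.0105) and Pparg (0.45, adjusted p = 0.0306) were called without parous array 4 (over 19 alternatives their adjusted p ran from 0.0105 to 0.863 and from 0.0306 to 0.815). Both directions appeared in both adult groups: Retn was 2.68 higher in batch 3 among nulliparous and 1.69 among parous arrays, and Lipe differed by -1.63 and -1.91. Lipe in batch 3 lay at 9.44, 9.28, 9.15 and 9.39, below all 3 lactation arrays, and Cfd at 13.39, 13.41, 12.70 and 13.30, where the highest array of any other batch was 12.72. Kit, batch and the choice of fattier glands cannot be told apart.

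**Figure D3:**
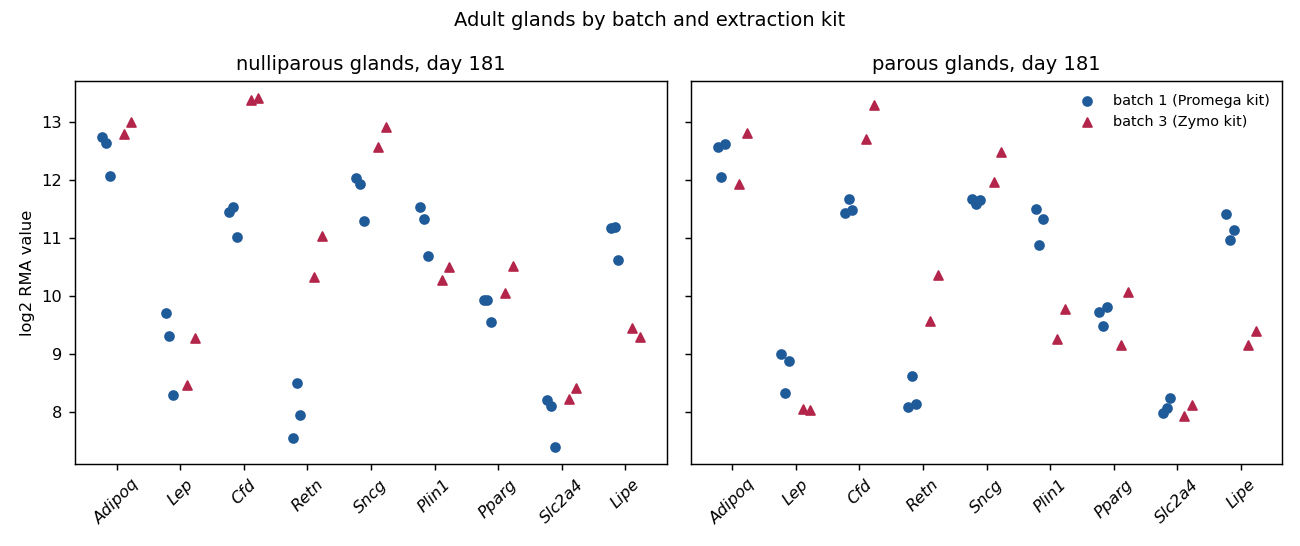
Log2 RMA value of the 9 genes in nulliparous and parous glands of day 181, with circles for batch 1 (Promega kit) and triangles for batch 3 (Zymo kit). Batch 3 arrays lie above batch 1 for Cfd, Retn and Sncg and below it for Plin1 and Lipe in both groups, and mix with it for Adipoq, Pparg and Slc2a4 among parous arrays.

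Batch 2 against batch 1 was milder. Cfd was higher by 0.81 ± 0.13 (adjusted p = 5.65e-06) and Retn by 0.45 ± 0.18 (adjusted p = 0.0329), while Slc2a4 differed by -0.54 ± 0.13 (adjusted p = 0.00057) and Lipe by -0.40 ± 0.10 (adjusted p = 0.00147). That is 4 of 9 members, where 56.6% of all genes were called. Lactation was run only in this batch, so the lactation level of every member depends on its term. The Lep term, 0.51 ± 0.27, was not called (adjusted p = 0.101) but was larger in size than those of Retn and Lipe.

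Other genes of fat were followed as lists by function. Over all genes tested, 15.2% fell and 17.1% rose at day 42 against day 21. At day 42 against day 21, 9 of 11 transcription factors of the adipocyte programme fell and 1 rose, with Cebpa, the partner of Pparg, at -0.93 ± 0.12 and Ebf1 at -0.43 ± 0.08. Of 12 droplet and lipolysis genes 10 fell and 0 rose, among them the beta-3 adrenergic receptor gene Adrb3 (-1.10 ± 0.15), Pde3b, which relays the antilipolytic action of insulin (-1.13 ± 0.15), and the droplet genes Plin4 (-1.01 ± 0.16) and Cidec (-0.77 ± 0.16). List medians were -0.49 and -0.65. Lipid synthesis was split, with 5 of 13 genes up and 4 down: Me1, which supplies NADPH for fatty acid synthesis, rose by 2.25 ± 0.24 and Agpat2, an enzyme of triglyceride assembly, fell by 0.89 ± 0.14. As background, many genes of that list also serve milk fat in epithelium.

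Among the other secreted factors 4 of 9 fell and 2 rose at day 42, from Nnat at -2.12 ± 0.22 to Angptl4, an inhibitor of lipoprotein lipase, at 1.24 ± 0.17. Of 8 uptake genes 3 fell and 2 rose, with Lpl, the lipase that frees fatty acids from lipoproteins, at -0.53 ± 0.09 and the fatty acid carrier gene Fabp4 at -0.65 ± 0.12. Of 8 insulin response genes 4 fell, among them Trarg1, a partner of GLUT4 vesicles (-0.71 ± 0.14). Of 8 markers of fat precursor cells 2 rose and 0 fell, against 17.1% of all genes that rose. Of the 3 brown and beige fat genes tested, Cidea (-0.61 ± 0.18) and Cpt1b (-0.78 ± 0.12) fell and Tmem26 rose by 0.84 ± 0.17. Receptors for adipokines were split, with C3ar1 at 0.69 ± 0.13 and Adipor2 at -0.30 ± 0.08 as the called ones of 5.

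In lactation against day 63, 5 of 11 transcription factors fell and 2 rose, with Ebf2 at -1.36 ± 0.22, Ebf1 at -1.08 ± 0.11 and Cebpa at -0.93 ± 0.17. Of 12 droplet and lipolysis genes 8 fell and 2 rose, where 16.9% of all genes fell and 23.8% rose. Plin4 (-1.44 ± 0.23), Cidec (-1.40 ± 0.23) and Adrb3 (-1.32 ± 0.21) fell beside Plin1, whereas Cidea, a droplet gene of brown fat that lactating epithelium also uses, rose by 2.33 ± 0.25. Of 13 synthesis genes 7 fell and 0 rose, with the triglyceride enzymes Dgat2 at -2.01 ± 0.21 and Agpat2 at -1.42 ± 0.20. Rbp4, a retinol carrier also secreted by fat, fell by 2.91 ± 0.24, as did Trarg1 (-1.94 ± 0.19) and Lpl (-0.94 ± 0.13). Glycerol kinase, Gk, rose by 2.14 ± 0.27 and Angptl4 by 1.17 ± 0.24. Of 8 precursor markers 6 fell, with Dpp4 at -2.59 ± 0.37 and Pdgfra at -1.12 ± 0.17, and all 8 fibroblast genes fell too.

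In parous glands against lactation, 7 of 11 transcription factors rose and 1 fell, and 7 of 12 droplet genes rose and 2 fell, with medians of 0.70 and 0.83. Of all genes 12.1% rose and 20.7% fell. Of 8 uptake genes 1 rose and 2 fell, and of 8 insulin response genes 3 rose and 2 fell. Ebf1 rose by 1.12 ± 0.13, Cidec by 1.71 ± 0.27, Trarg1 by 2.13 ± 0.22, Rbp4 by 2.62 ± 0.28 and Dgat2 by 1.72 ± 0.24. Cidea (-2.17 ± 0.29), Gk (-2.20 ± 0.31) and Angptl4 (-1.79 ± 0.28) fell. Of the receptors for adipokines, Adipor1 (-0.70 ± 0.12), Adipor2 (-0.45 ± 0.12) and C3ar1 (-1.14 ± 0.21) fell and Cdh13, the vascular binding partner of adiponectin, rose by 0.56 ± 0.17. Between nulliparous glands and day 63, Cidec rose by 0.75 ± 0.21 and Agt, the angiotensinogen gene, fell by 0.71 ± 0.19. All 9 lists were written with earlier results of these arrays known, and their counts describe them.

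**Figure D4:**
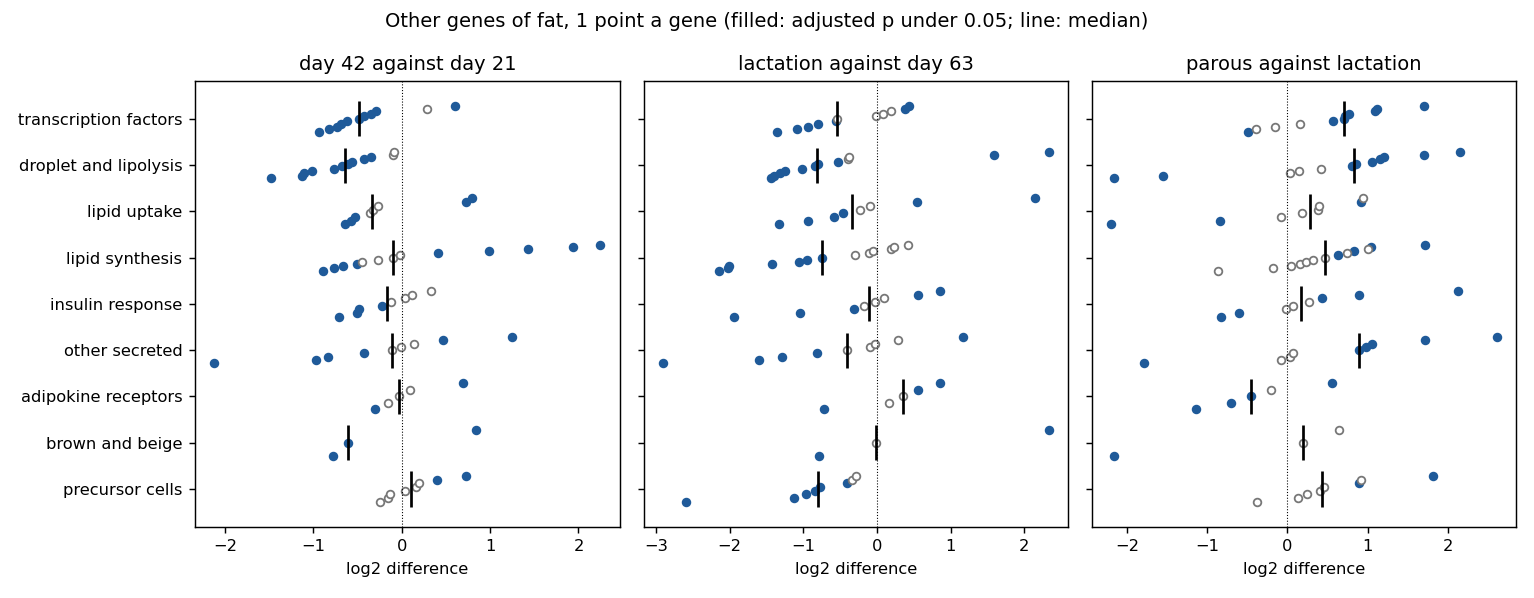
Log2 difference of every tested gene of 9 fat lists in 3 comparisons, 1 point a gene, filled where the adjusted p is under 0.05, with a line at the list median. Transcription factor and droplet lists lie mostly left of 0 at day 42 and in lactation and mostly right of 0 in parous against lactating glands, with single genes on the other side.

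The lactation values stood beside large shifts of other cells. The luminal list had 7 of 14 genes up and 1 down against day 63, where 23.8% of all genes rose. Against nulliparous glands it had 8 up and 1 down, where 21.4% of all genes rose. All 8 fibroblast genes fell in both comparisons (list medians -2.25 and -1.38), where 16.9% and 13.5% of all genes fell. Against day 63, milk protein genes had 4 of 8 up and 0 down. With the luminal mean as a covariate, Sncg (-2.92, adjusted p = 5.99e-09), Adipoq (-1.83, adjusted p = 1.09e-07), Cfd (-1.81, adjusted p = 2.85e-06) and Plin1 (-1.77, adjusted p = 4.71e-06) were called against day 63. Slc2a4 (-0.90, adjusted p = 0.00486), Pparg (-0.87, adjusted p = 0.00886) and Lipe (-0.52, adjusted p = 0.0418) were called too. The lactation means (10.25 to 10.78) all lay above the pubertal ones (9.55 to 9.95), so this covariate cannot separate stage from epithelial content. Skeletal muscle list means stood at 8.46 and 9.79 in lactation arrays 1 and 3 and at 6.88 in array 2. As background, muscle is also a site of GLUT4 and of hormone-sensitive lipase. Lactation array 3 had the highest Slc2a4 (7.08) and Lipe (10.42) of its group, and also the highest Pparg (9.28). In arrays 1 and 2 Slc2a4 was 6.84 and 6.48, whereas Lipe was 9.79 and 10.07. With the muscle mean as a covariate the differences from day 63 were -0.98 for Slc2a4 (adjusted p = 0.00117) and -0.49 for Lipe (adjusted p = 0.0368). The part of muscle in the Slc2a4 and Lipe values was not tested.

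**Figure D5:**
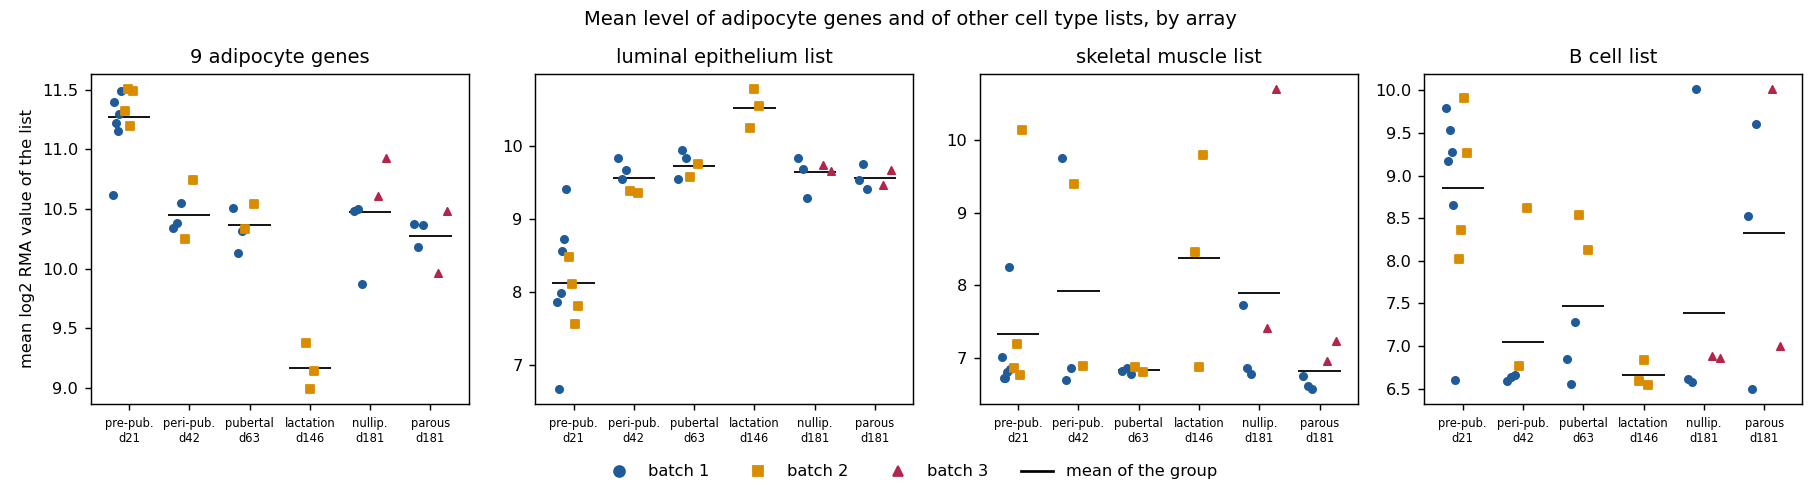
Mean log2 RMA value per array of the 9 adipocyte genes and of lists for luminal epithelium, skeletal muscle and B cells, by stage, with colour and shape for batch and a line at the group mean. The adipocyte mean is highest in pre-pubertal glands (10.62 to 11.51) and lowest in lactation (8.99 to 9.38), the luminal mean shows the reverse order at these stages, and single arrays stand high for muscle.

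Within stages, the correlation of members varied by pair and was not set against that of other genes. After the mean of each stage and batch was removed, the median correlation over the 36 pairs of members was 0.54 (33 arrays of 1 tissue and platform). Adipoq and Plin1 had the highest, 0.89, and pre-pubertal array 1 and nulliparous array 3 were the lowest of their stage in batch 1 for both. For Lep the values ran from -0.02 with Cfd, 0.06 with Retn and 0.13 with Pparg, through 0.30 with Plin1, 0.31 with Lipe, 0.36 with Slc2a4 and 0.37 with Adipoq, to 0.67 with Sncg. Genes outside the set with the most similar course to the mean of the 9 (Pearson r over 33 arrays) were Csad, a taurine synthesis enzyme, at 0.960, Pmp22 at 0.947, the activin receptor gene Acvr1c at 0.941, Agpat2 at 0.940 and the transcription factor gene Zfp423 at 0.936. Tmem182, Prkar2b, Cidec, C6h14orf180 and Pfkfb1 followed, down to 0.926. For single members the nearest were Trarg1 for Plin1 (0.970), Prkar2b for Adipoq (0.959), Ptprs for Lipe (0.953), Pfkfb1 for Pparg (0.951), Mmp28 for Slc2a4 (0.940), S100b for Sncg (0.934), Asrgl1 for Cfd (0.931), Apmap for Retn (0.846) and Npr3 for Lep (0.832). Stage and batch differences contribute to these values.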

How the data were processed

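Biotin-labelled RNA of 33 glands was hybridised to Affymetrix whole-transcript arrays. The authors deposited log2 values made with Affymetrix Expression Console and RMA, per the submitters' processing notes; no version or genome build is given in the sources used here. RMA corrects background, normalizes between arrays and summarises probes. The table has no detection calls, values near the top can be compressed by saturation, and the number of arrays limits precision.

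Groups, batches and kits came from the labels. Probe sets with 1 gene symbol were used (18511 of 36685). Genes above 7.645, the median of those probe sets, in at least 3 arrays were tested (10986). limma 3.58.1 in R 4.3.3 was fitted to all 33 arrays with stage and batch terms (25 residual degrees of freedom) and an intensity trend; tests were two-sided and Benjamini-Hochberg adjusted p-values over all genes are given. The script was tested on simulated data. The list genes named come from the 4 of smallest p in the stage test of each list. Likeness was Pearson's r. The members and lists were chosen with earlier results of these data known. Promoters came from RefSeq. The alternatives were other batch terms, single batches, filters, normalizations, weights, thresholds, list means as covariates and each array left out. Figures used matplotlib 3.10.9.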

Additional observations from a re-analysis of the deposited data

Results flagged for a closer look

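Each member was checked within each stage of 4 to 10 arrays for a single array far from the rest, 45 such groups in all, where chance marks about 1 in 20. There were 2. Adipoq in pre-pubertal array 1 was 12.63, the lowest of the 10, with the next at 13.06 and the highest at 13.43. That array was also the lowest of its group for Lep, Cfd, Retn, Sncg and Plin1. Lipe in pubertal array 4 was 10.25, with the next of the 5 arrays at 10.83 and the highest at 11.05.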

How the results depend on the processing

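The count of members called moved by over 1.5 times in these cases, whose cause was not tested. For day 42 against day 21 (8 members) it was 5 with no batch term, in batch 2 only and with the luminal mean as a covariate, and 3 at a 2-fold minimum. For day 63 against day 42 (0) it was 4 with array weights and 1 with only the groups compared. For nulliparous glands against day 63 (2) it was 1 with no batch term, without batch 3, in batch 1 only, with no filter, with arrays centred on their median, with only the groups compared, with the muscle mean as a covariate and at an adjusted p under 0.01. For lactation against day 63 (7) it was 4 at a 2-fold minimum, for lactation against nulliparous glands (8) it was 5 at an adjusted p under 0.01 and at a 2-fold minimum, and for parous glands against lactation (7) it was 4 at an adjusted p under 0.01. For batch 2 against batch 1 (4) it was 7 with array weights and 0 at a 2-fold minimum. With each array left out in turn the counts ranged from 6 to 8 for day 42 against day 21, 0 to 0 for day 63 against day 42, 1 to 3 for nulliparous glands against day 63, 5 to 7 for lactation against day 63, 5 to 9 for lactation against nulliparous glands, 4 to 8 for parous glands against lactation and 0 to 0 for parous against nulliparous glands. They were 5 to 7 for batch 3, 3 to 6 for batch 2 and 9 to 9 for the stage test. Among 1917 member values under the alternatives, 1792 kept their side of the threshold and 0 called values changed sign. Over all genes, the count called ranged over the settings from 311 (luminal mean as a covariate) to 5004 (array weights) around 3552 for day 42 against day 21, and from 0 (batch 2 only) to 1653 (array weights) around 134 for day 63 against day 42, where no batch term gave 5. It ranged from 69 to 1993 around 469 for nulliparous glands against day 63, from 897 to 5263 around 4472 for lactation against day 63, from 909 to 4198 around 3835 for lactation against nulliparous glands and from 790 to 4003 around 3610 for parous glands against lactation, with each lowest count at a 2-fold minimum. For parous against nulliparous glands it ranged from 0 to 26 around 2, for batch 3 from 4034 to 10967 around 8501 and for batch 2 from 294 to 7660 around 6222. No paired analysis was possible because the replicate numbers were given in accession order. A fit of only the groups compared could not be made for lactation against nulliparous or parous glands, which share no batch.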

Other observations

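Zfp521, a zinc finger gene of fat precursor cells, and Cdh13 were among the list genes that fell in lactation against day 63 (-0.84 ± 0.15 and -0.72 ± 0.15). Cpt1b, which moves fatty acids into mitochondria, fell by 0.78 ± 0.12 at day 42 and differed by -0.01 ± 0.17 in lactation. Irs1, an adaptor of the insulin receptor, fell by 1.05 ± 0.21 in lactation against day 63 and rose by 0.89 ± 0.24 in parous against lactating glands. Foxo1, which restrains insulin-driven gene programmes, fell by 0.49 ± 0.09 at day 42.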
